A study of Mus musculus with 9 samples.

Results

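The 38 genes described here are Hox genes of the 4 mouse clusters, measured in mouse embryonic stem cells (mESCs) that lack RING1B or carry a RING1B without ubiquitin ligase activity. They were chosen by name, from the RefSeq accession, symbol or Ensembl gene that the deposited table gives for each probe, and all 38 had at least 1 probe, out of 21713 genes in that table. Where a gene had several probes the brightest over the 9 arrays was used. Hoxa holds 10 of the 38 genes (chromosome 6), Hoxb 10 (chromosome 11), Hoxc 9 (chromosome 15) and Hoxd 9 (chromosome 2). The cells were male E14Tg2a mESCs of the strain 129P2/OlaHsd, all grown with serum and leukaemia inhibitory factor (LIF). The study hybridised 3 samples of the parental cells (wild type, WT), 3 of cells with both copies of Ring1B disrupted by deletion of an exon (Ring1B -/-, KO) and 3 of cells with the I53A substitution knocked into both endogenous copies (Ring1B I53A/I53A, I53A). The I53A protein still enters Polycomb repressive complex 1 (PRC1) but does not work as an E3 ligase. Both mutants were derived from the WT line, and the sources used here describe no second line of either genotype, so line and genotype cannot be told apart. The study's methods call the 3 samples of a group biological replicates, without saying how they were kept apart, and the p-values measure the spread between these samples of 1 line.

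Hox genes encode homeodomain transcription factors that give cells of the embryo their position along the head-to-tail axis. Genes of a cluster are numbered from its 3′ end, group 1, to its 5′ end, group 13, and low-numbered genes act early and near the head while high-numbered genes act late and near the tail, in the limb ends and in the genital tract. In mESCs the clusters are classic Polycomb targets, covered by PRC1, PRC2 and their histone marks and hardly transcribed. The comparisons ask how far Hox transcript levels differ once RING1B is absent, and how far they differ when only its ligase activity is gone.

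Polycomb target promoters in mESCs are typically rich in CG dinucleotides, so the 250 bases before the RefSeq start (GRCm38.p6) are shown for 4 genes whose signals differ in what they did. Hoxc4 and Hoxd10 rose in KO, Hoxd13 lay higher on every KO array than on any WT array without passing the test, and Hoxa13 lay lower on every KO array. The windows of Hoxc4 and Hoxd10 lie before a start inside the full RefSeq extent of the gene, so other starts were not covered. Sequences run 5′ to 3′ on the strand of the gene, and capitals mark CG.
Hoxc4 (chr15:103034145-103034394, plus strand): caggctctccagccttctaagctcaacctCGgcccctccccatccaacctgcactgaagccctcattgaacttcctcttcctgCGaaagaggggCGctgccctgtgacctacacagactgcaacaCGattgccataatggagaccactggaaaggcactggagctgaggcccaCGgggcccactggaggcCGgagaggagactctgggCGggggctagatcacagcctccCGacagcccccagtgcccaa
Hoxd10 (chr2:74691641-74691890, plus strand): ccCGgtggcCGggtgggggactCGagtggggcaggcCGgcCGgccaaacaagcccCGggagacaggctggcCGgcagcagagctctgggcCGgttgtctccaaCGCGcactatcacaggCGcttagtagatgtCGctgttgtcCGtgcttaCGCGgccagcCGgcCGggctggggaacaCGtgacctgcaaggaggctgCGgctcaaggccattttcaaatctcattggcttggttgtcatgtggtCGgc
Hoxd13 (chr2:74667975-74668224, plus strand): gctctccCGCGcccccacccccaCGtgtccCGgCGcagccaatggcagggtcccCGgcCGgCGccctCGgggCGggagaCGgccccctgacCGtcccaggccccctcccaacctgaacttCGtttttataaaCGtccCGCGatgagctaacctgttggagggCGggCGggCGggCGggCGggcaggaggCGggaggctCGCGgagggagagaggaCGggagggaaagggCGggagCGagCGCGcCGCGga
Hoxa13 (chr6:52260881-52261130, minus strand): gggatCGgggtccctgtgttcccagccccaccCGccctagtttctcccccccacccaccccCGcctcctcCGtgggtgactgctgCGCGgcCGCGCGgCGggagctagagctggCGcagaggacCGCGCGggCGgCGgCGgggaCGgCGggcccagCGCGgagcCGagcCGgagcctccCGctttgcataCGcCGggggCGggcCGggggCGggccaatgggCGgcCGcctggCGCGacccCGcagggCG

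These 4 windows held 8, 20, 31 and 35 CG dinucleotides. Of all 32851 RefSeq windows of this length, 43.0% held as many as Hoxc4 or more, 17.9% as many as Hoxd10, 5.19% as many as Hoxd13 and 2.97% as many as Hoxa13. The table held 24 windows for 22 of the 38 genes, with between 2 and 35 CG (median 12.5, against 6 over all windows). A HOX and PBX motif, TGATNNAT on either strand, matched in 4 of the 24 windows (16.7%), those of Hoxa2, Hoxb1, Hoxb8 and 1 of Hoxd11, and in 7.68% of all windows. No window was available for Hoxb13 or Hoxc9, which also rose in KO. Whether CG content goes with the change in KO was not tested.

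Values are log2 normalised intensities, and group values are mean ± SD of 3 arrays. A gene was called at a Benjamini-Hochberg adjusted p under 0.05 in limma, over all 30170 probes, together with a change of more than 2-fold. Between 45.4% and 57.4% of the tested probes of an array were well above background. WT 2 had the lowest share of the 9. WT 3, KO 1 and I53A 3 were hybridised on slide 2 and the other 6 arrays on slide 1, where each row of a slide held 1 array of each group. Rnf2, which encodes RING1B, gave 8.32, 8.27 and 8.47 on the WT arrays, 7.35, 7.92 and 8.08 on the KO arrays and 8.69, 9.10 and 8.59 on the I53A arrays. It did not pass the test in KO (log2FC -0.57, SE 0.26, adjusted p 0.288), and whether its probe lies in the deleted exon was not established, so it checks no label. Of 10 markers of embryonic stem cells 9 had a probe, with Pou5f1 and Sox2 above background on all 9 arrays and Nanog on 7.

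Hox transcripts were faint in the WT cells. Only 8 of the 38 genes were well above background on all 3 WT arrays, 6 on 1 or 2 of them and 24 on none. In KO cells 14 were above background on all 3 arrays and 16 on none, and in I53A cells 11 and 21. By array, between 8 and 13 of the 38 were above background in WT, between 16 and 19 in KO and between 11 and 15 in I53A, so the KO range lay above both others. Of all tested probes, 45.4% to 53.7% were above background in WT, 50.1% to 56.1% in KO and 51.3% to 57.4% in I53A. These ranges overlapped. The 8 genes above background on all 9 arrays were Hoxa6, Hoxa9, Hoxa13, Hoxb3, Hoxc10, Hoxc12, Hoxd10 and Hoxd11, and 15 genes were above it on none of the 9. A signal at background gives only an upper bound, and such a gene need not be silent. In a bulk sample fewer expressing cells and less RNA per cell cannot be told apart.

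In KO cells 4 of the 38 Hox genes rose and none fell, by the brightest probe of each gene. The 4 were Hoxb13, Hoxc4, Hoxc9 and Hoxd10. Each is from a cluster other than Hoxa, but Hoxa9 was called with its probes averaged (log2FC 1.12, adjusted p 0.0117 in limma). Over all 21713 genes, 2.92% were called higher in KO and 1.17% lower. The median log2FC of the 38 genes was 0.59, against -0.023 over all genes, and 29 of the 38 had a log2FC above 0. With a group at background raised to each array's lowest signal above background, the median was 0.79 over 22 genes. The 16 genes at background in both groups were left out. Genes above background in KO alone are among the 22, so this choice of genes favours higher KO values. All 3 KO arrays lay above all 3 WT arrays in 15 of the 38 (39.5%) and below them in 2 (5.26%), where 12.2% and 13.5% of all genes did so.

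Hoxb13 (chromosome 11, 96194316 to 96196610), a gene of the tail bud and later the prostate, gave 2.67, 3.55 and 2.86 on the WT arrays and 5.26, 5.82 and 4.80 on the KO arrays. The KO arrays all lay above the WT arrays, by more than a whole log2 unit at the closest. Its WT signals did not exceed background, while KO 1 and KO 2 did. With WT raised to each array's lowest signal above background, it was 2.72-fold higher in KO (means 3.03 ± 0.47 and 5.29 ± 0.51, limma adjusted p 0.00520). KO 3, at background, entered that fold as measured, so the fold is no strict lower bound. The difference was 2.20 within slide 1 and 2.40 within slide 2.

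Hoxc9 (chromosome 15, 102977032 to 102984444), which sets thoracic identity in motor neurons, gave 5.19, 4.83 and 5.16 in WT and 6.34, 6.93 and 6.75 in KO. Again no KO array reached down to a WT array. The change was 3.07-fold (log2FC 1.62, SE 0.23, adjusted p 0.00348 in limma), with 1 of the 3 WT arrays above background and all 3 KO arrays. Within slide 1 it was 1.84 on the log2 scale and within slide 2 it was 1.18.

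Hoxc4 (chromosome 15, 103018097 to 103036856), the gene at the 3′ end of its cluster, gave background signals in WT (4.05, 2.88 and 3.996) and exceeded background on KO 1 and KO 3 (4.92, 5.02 and 5.56 on the KO arrays). With WT raised to each array's lowest signal above background, it was 2.05-fold higher in KO (adjusted p 0.0303 in limma). KO 2, at background, entered that fold as measured, so the fold is no strict lower bound. WT 2 was the lowest array of Hoxc4 by over a log2 unit. Hoxd10 (chromosome 2, 74684273 to 74695106), a gene of the lumbar cord and the limb, was above background on all 9 arrays. It gave 6.13, 5.67 and 5.46 in WT and 7.05, 6.89 and 6.95 in KO, the tightest KO group of the 4 genes (SD 0.081). It rose 2.31-fold (log2FC 1.21, SE 0.26, adjusted p 0.0296 in limma).

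The calls of Hoxb13 and Hoxc9 held with each array left out in turn (adjusted p up to 0.0288 and 0.0188), while those of Hoxc4 and Hoxd10 ended without WT 2, WT 3, KO 1, KO 2 or KO 3 (adjusted p 0.0546 to 0.107 and 0.0734 to 0.115). On slide 1 alone only Hoxc9 of the 4 was called, and with slide and row as a block the call of Hoxc4 ended (0.0590). A filter that left out dim probes, those well above background on fewer than 3 arrays, removed Hoxb13 and Hoxc4. With normexp background correction, which adds an offset of 50 to each intensity and so compresses dim probes, none of the 4 changed more than 2-fold, with log2FC 0.41 for Hoxb13, 0.68 for Hoxc9, 0.37 for Hoxc4 and 0.68 for Hoxd10 and adjusted p 0.0284, 0.0131, 0.151 and 0.00706.

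**Figure D1:**
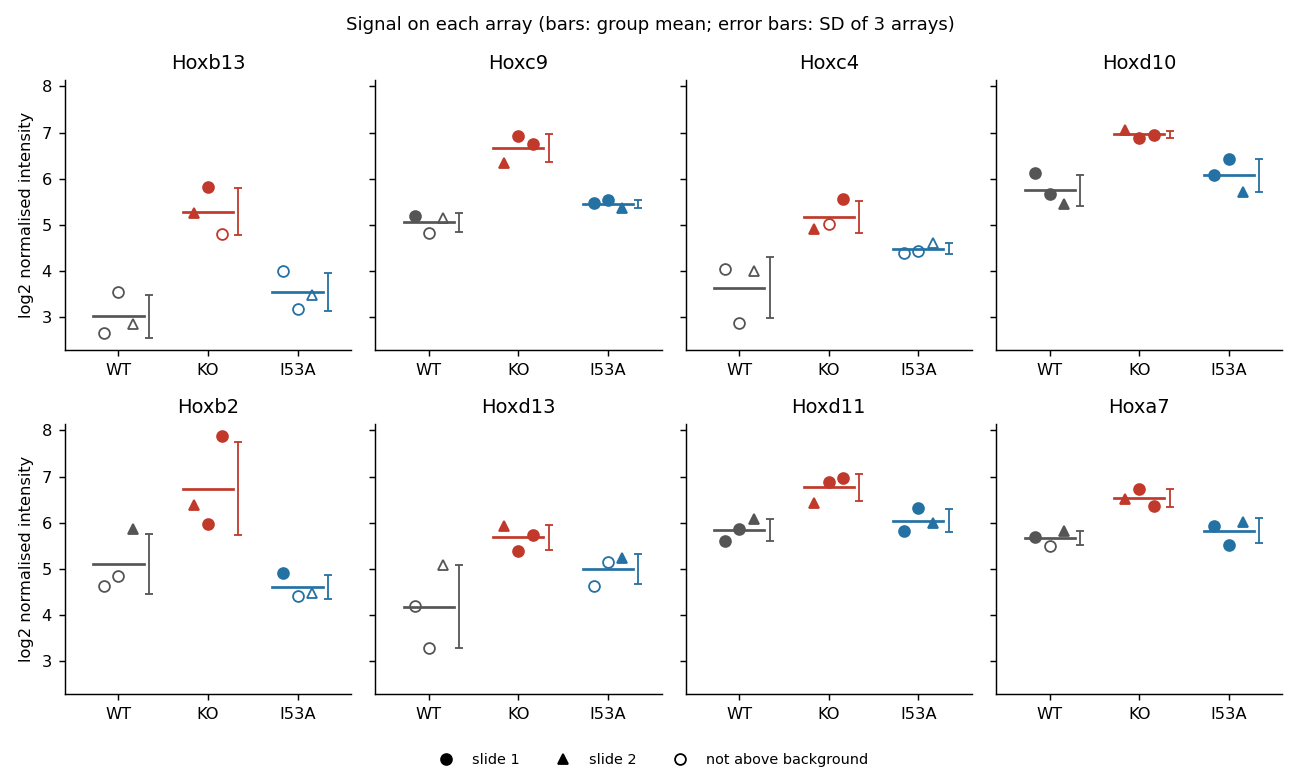
Log2 normalised intensity (y axis) of 8 Hox genes on each of the 9 arrays (circles, slide 1; triangles, slide 2; open symbols, not well above background), with group means as horizontal bars and the SD of 3 arrays as error bars. In all 8 panels the 3 KO arrays lie above the 3 WT arrays; the upper 4 genes were called in KO against WT and the lower 4 were not.

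By number, Hoxb13, Hoxc9 and Hoxd10 were posterior and Hoxc4 was central, though Hoxc9 lies in the middle of its cluster. Of 16 posterior genes (groups 9 to 13) 3 were called in KO, of 15 central genes (groups 4 to 8) 1, and of 7 anterior genes (groups 1 to 3) none. Over all genes 2.92% were called higher. The median log2FC in KO was 0.73 for posterior, 0.32 for central and 0.50 for anterior genes, so it did not run in order along the cluster. All KO arrays lay above all WT arrays for 8 of the 16 posterior, 6 of the 15 central and 1 of the 7 anterior genes, and below them for 2 posterior genes. The posterior group was also the one most often measurable, since 4 of its 16 genes were at background in both WT and KO, against 8 of the 15 central and 4 of the 7 anterior genes. How much this adds to the counts was not tested.

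**Figure D2:**
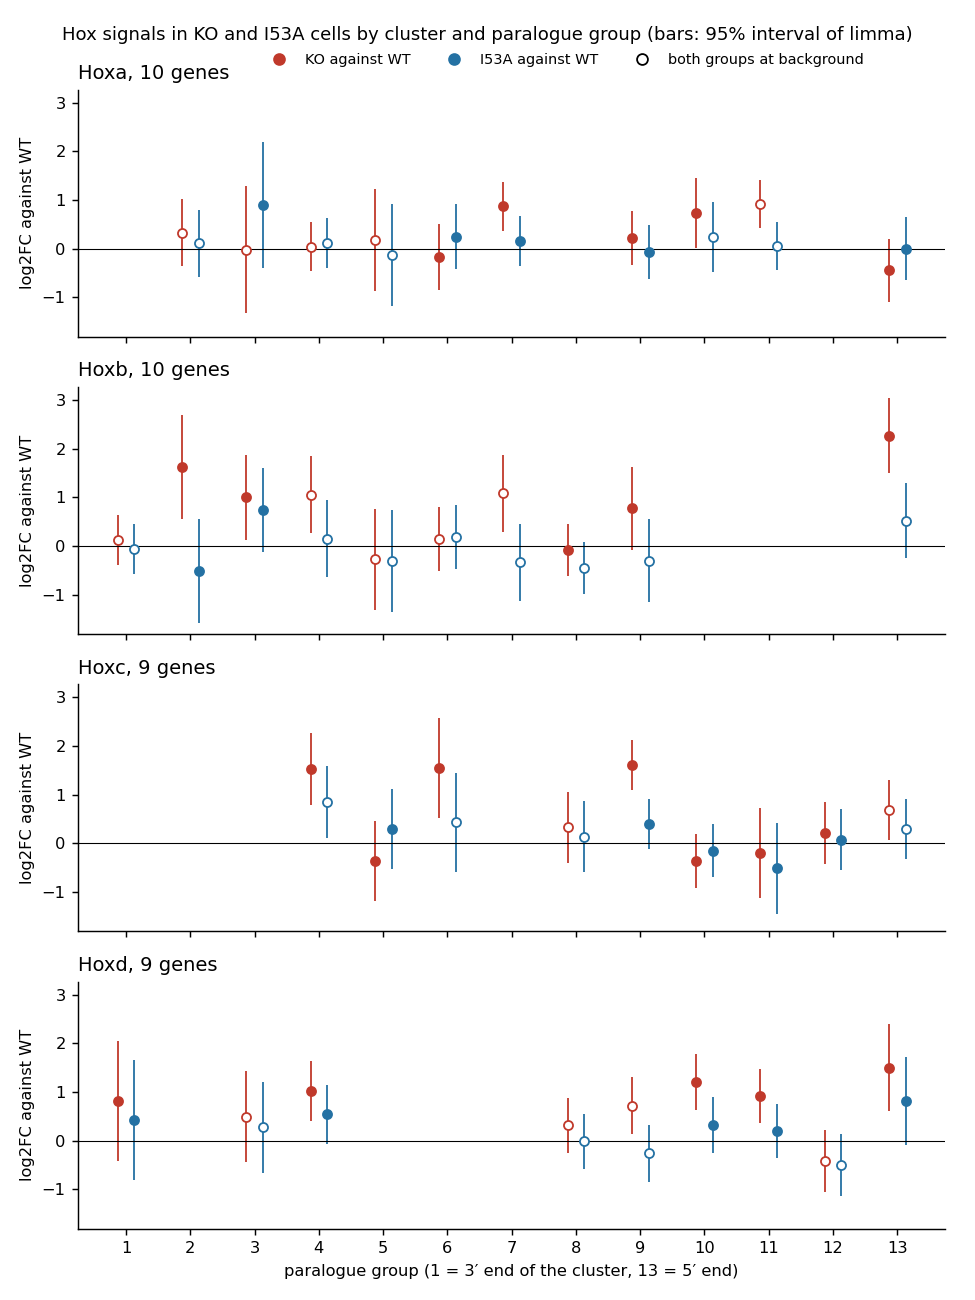
Log2FC against WT (y axis, bars 95% interval of limma) for KO and I53A, by paralogue group (x axis) in each cluster; open symbols mark genes at background in both groups compared. KO values range from -0.45 to 2.27 and I53A values from -0.51 to 0.90, and the highest KO value of Hoxb and of Hoxd is at group 13, while that of Hoxc is at group 9.

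The 10 Hoxa genes had a median log2FC of 0.20 in KO (0.059 with 75th percentile scaling), and no Hoxa gene was called by its brightest probe. Hoxa7 (chromosome 6, 52215623 to 52218573), active in the trunk, gave 5.69, 5.50 and 5.81 in WT and 6.51, 6.74 and 6.36 in KO without overlap (log2FC 0.87, SE 0.23, adjusted p 0.0681). Hoxa10, needed for the uterus and the lumbar spine, was at background on the WT arrays (5.24, 4.31 and 4.79) and above it on all KO arrays (4.98, 5.53 and 6.02), but the groups overlapped (adjusted p 0.277). Hoxa11, which patterns the forearm, passed the test but not the 2-fold limit (log2FC 0.92, SE 0.22, adjusted p 0.0448) and was at background on all 9 arrays, so no fold is given. Its values were 4.06, 3.89 and 3.96 in WT and 4.73, 5.17 and 4.76 in KO. Hoxa13 (chromosome 6, 52258853 to 52260880), a gene of the hand plate and the genital tract, was the only Hoxa gene with all KO arrays (6.24, 6.71 and 6.76) below all WT arrays (6.89, 6.93 and 7.23), and did not pass the test (adjusted p 0.479). Hoxa6 gave 6.88 ± 0.50 in WT and 6.70 ± 0.046 in KO.

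Hoxb had a median log2FC of 0.89 in KO, and 8 of its 10 genes lay above 0. After Hoxb13, the largest value was that of Hoxb2 (chromosome 11, 96351632 to 96354020), a hindbrain gene, which gave 4.63, 4.84 and 5.86 in WT and 6.37, 5.97 and 7.88 in KO without overlap (log2FC 1.63, SE 0.48, adjusted p 0.0976). Its KO arrays spread over almost 2 log2 units, and 1 WT array was above background. Hoxb3, a neighbour of it that is also expressed in the hindbrain, was above background on all 9 arrays and gave 4.49 ± 0.40 in WT and 5.49 ± 0.71 in KO (adjusted p 0.211). Hoxb4 and Hoxb7 lay higher on every KO array but were at background throughout, with fitted log2FC 1.06 and 1.08 (adjusted p 0.146 and 0.137). Hoxb8, a gene of the trunk and of myeloid cells, gave 4.99 ± 0.22 in WT and 4.91 ± 0.27 in KO.

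Hoxb lies on a chromosome whose probes lay higher on median in KO. The median of 688 bright chromosome 11 probes (mean log2 over 7) lay 0.30, 0.36 and 0.42 above the WT mean on the KO arrays, and that of the 1726 other chromosome 11 probes, among them the Hoxb probes, 0.13, 0.14 and 0.09. The WT and I53A arrays lay between -0.05 and 0.02. Chromosomes 2, 6 and 15, which carry the other clusters, lay between -0.10 and 0.05 on the KO arrays. With each chromosome centred on its bright probes, the Hoxb median in KO was 0.53 in place of 0.89, and Hoxb13 was still called. This centring took off more than the median shift of the other probes, to which the Hoxb probes belong. What part the chromosome has in the other Hoxb values was not tested.

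The 9 Hoxc genes had a median log2FC in KO of 0.33, but -0.20 with probes that were well above background on fewer than 3 arrays left out, a limit that removes Hoxc4, 0.54 without KO 2 and 0.036 without KO 1. Beside Hoxc9 and Hoxc4, Hoxc6, a thoracic gene, lay higher on every KO array (3.00, 3.63 and 2.81 in WT, 3.72, 4.99 and 5.37 in KO, adjusted p 0.0982), with 1 KO array above background, and passed the test without KO 1 (adjusted p 0.0312). Hoxc5, which lies between Hoxc4 and Hoxc6, gave 6.21 ± 0.46 in WT and 5.85 ± 0.57 in KO. Hoxc10, a gene of the hindlimb and lumbar cord next to Hoxc9, lay lower on every KO array (7.51, 7.56 and 7.16) than on any WT array (7.87, 7.59 and 7.87), and the difference did not pass the test (log2FC -0.36, SE 0.25, adjusted p 0.506). Hoxc13, at background throughout, had a log2FC of 0.69 without overlap. Hoxc11 and Hoxc12 had log2FC -0.20 and 0.22 with overlapping groups.

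Of the 9 Hoxd genes 8 had a log2FC above 0 in KO, and the median was 0.82, with 0.49 without WT 2. In 5 of the 9 (55.6%) every KO array lay above every WT array, where 12.2% of all genes did so. Hoxd13 (chromosome 2, 74668225 to 74671603), which shapes the digits, was at background on the WT arrays (4.19, 3.28 and 5.08). It was above background on all KO arrays (5.94, 5.39 and 5.73). With WT raised to each array's lowest signal above background, it was 2.38-fold higher in KO (adjusted p 0.0725 in limma). It was called with slide as a block (0.0426) and without WT 3 (0.0242). Hoxd11, a forearm gene above background on all 9 arrays, gave 5.61, 5.85 and 6.07 in WT and 6.43, 6.89 and 6.97 in KO (log2FC 0.92, SE 0.25, adjusted p 0.0722). Hoxd4, active in the hindbrain and neck, went from 4.87 ± 0.31 to 5.89 ± 0.34 (adjusted p 0.0720), with 1 WT array above background. Hoxd9 lay higher on all KO arrays at background. Hoxd12, between Hoxd11 and Hoxd13, was at background on all 9 arrays, with 3.22 ± 0.32 in WT and 2.81 ± 0.45 in KO.

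**Figure D3:**
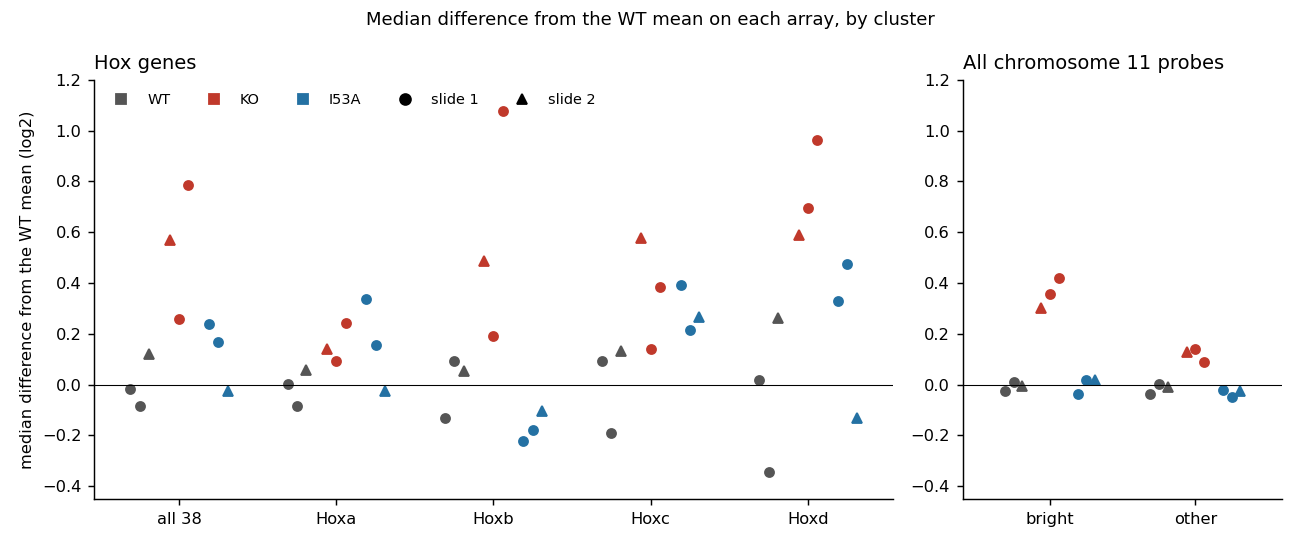
Median difference from the WT mean (y axis, log2) on each array over all 38 Hox genes and by cluster (left), and over all chromosome 11 probes, bright and other (right); circles are slide 1 and triangles slide 2. Over all 38 genes the KO arrays lie between 0.26 and 0.78, the I53A arrays between -0.03 and 0.24 and the WT arrays between -0.09 and 0.12.

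Within slide 1 the median difference between KO and WT over the 38 genes was 0.82, and within slide 2, with 1 array a group, it was 0.26. The same values were 0.85 and 0.42 for Hoxb, 1.02 and 0.25 for Hoxd, 0.15 and 0.22 for Hoxa and 0.07 and 0.51 for Hoxc. WT 2, with the lowest share of probes above background, had the lowest median of the WT arrays in Hoxa, Hoxc and Hoxd.

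Both mutants were compared with the same 3 WT samples, so their values against WT are not independent. In I53A cells no Hox gene was called by limma. Over all genes 0.290% were called higher and 0.111% lower. Without adjustment, 1 Hox gene passed 0.05 as higher (2.63%) and none as lower, against 5.83% and 3.94% of all genes. The median log2FC of the 38 genes was 0.14, against -0.0075 over all genes, and 25 of the 38 lay above 0. All I53A arrays lay above all WT arrays in 3 Hox genes and below them in 3 (7.89% each), close to the 8.72% and 9.70% of all genes. The median was -0.07 within slide 2 and 0.23 within slide 1.

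The 1 gene with an unadjusted p under 0.05 was Hoxc4, which gave 4.40, 4.45 and 4.62 on the I53A arrays, above every WT array and at background (log2FC 0.85, SE 0.33, adjusted p 0.465). Hoxc9 lay above WT on all I53A arrays as well, at 5.48, 5.54 and 5.37, a difference of 0.41 (95% interval -0.11 to 0.92, adjusted p 0.652). The 3 I53A arrays of Hoxc9 were all above background, as against 1 of the WT arrays. Hoxa3, a gene of the thymus and throat, was the third with no overlap, with 1 I53A array above background (4.75, 5.25 and 4.78 in I53A, 4.72, 2.75 and 4.62 in WT, adjusted p 0.692). Hoxb13 gave 3.99, 3.17 and 3.48, at background on every I53A array, so no fold is given. Hoxd10 gave 6.08, 6.43 and 5.71, overlapping WT, with a difference of 0.32 (95% interval -0.26 to 0.90). Hoxd13 and Hoxd4 had log2FC 0.82 and 0.54 (adjusted p 0.6001 and 0.612).

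By cluster the I53A medians were 0.11 for Hoxa, 0.29 for Hoxc and 0.28 for Hoxd. That of Hoxb was -0.19, and turned to 0.01 with normexp. With dim probes left out it was 0.12, but only Hoxb2 and Hoxb3 then remained of this cluster. Of the 3 Hox genes lower on all I53A arrays, 2 were Hoxb7 (3.06, 2.69 and 3.06 in I53A, 3.15, 3.34 and 3.31 in WT) and Hoxb8 (4.72, 4.57 and 4.32 and 5.10, 5.14 and 4.74), and the other was Hoxd12, each at background in both groups. Posterior genes, which had the highest median in KO, had 0.065 in I53A, central genes 0.15 and anterior genes 0.28.

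KO and I53A cells were then compared directly. Hoxb13 and Hoxc9 were higher in KO and no Hox gene was lower. Over all genes 1.06% were called higher and 0.405% lower. With I53A raised to each array's lowest signal above background and KO as measured, Hoxb13 was 2.37-fold higher in KO (adjusted p 0.0414 in limma). Hoxc9 was 2.32-fold higher in KO than in I53A (log2FC 1.21, SE 0.23, adjusted p 0.0331 in limma). Both calls were close to the threshold. Hoxb13 kept its call only without WT 2 when single arrays were left out (adjusted p 0.0539 to 0.159 otherwise), and Hoxc9 only without WT 2 or KO 1 (0.0592 to 0.121 otherwise). Both calls ended with normexp (adjusted p 0.0667 and 0.0848), 75th percentile scaling (0.0621 and 0.0627) and slide and row as a block (0.0844 and 0.0582). That of Hoxb13, on chromosome 11, also ended with each chromosome centred (0.116), and with slide as a block Hoxc9 alone was called.

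The median log2FC of the 38 genes in KO against I53A was 0.35, against -0.017 over all genes, and 31 of the 38 lay above 0. All KO arrays lay above all I53A arrays in 12 of the 38 (31.6%) and below in 1 (2.63%), where 7.86% and 8.12% of all genes did so. The 1 lower gene was Hoxa6 (6.71, 6.74 and 6.65 in KO, 7.60, 6.79 and 6.99 in I53A). All 9 Hoxd genes and 9 of the 10 Hoxb genes had a higher mean in KO than in I53A, as did 7 of the 9 Hoxc and 6 of the 10 Hoxa genes. Hoxb2 had the largest difference, 2.14 (SE 0.48, adjusted p 0.0706), with 4.91, 4.42 and 4.48 on the I53A arrays. It was called once dim probes were left out (adjusted p 0.0316 in limma). Hoxb2 passed that filter mainly through KO, with 3 KO arrays, 1 WT array and 1 I53A array above background. Hoxd10 differed by 0.89 (95% interval 0.31 to 1.47, adjusted p 0.174), Hoxc4 by 0.68 (-0.059 to 1.41, 0.493) and Hoxd13 by 0.68 (-0.22 to 1.59, 0.604). Their KO arrays lay above their I53A arrays without overlap, and these differences did not pass the test. In 19 of the 38 genes the I53A mean lay between a lower WT mean and a higher KO mean. The share of all genes with this order was not counted, and 15 of the 38 were at background on all 9 arrays.

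Hoxa9 (chromosome 6, 52223097 to 52227370), a gene of the trunk and of blood progenitors, gave different answers from its probes. The brighter probe, assigned to 3 transcripts, gave 7.07, 7.13 and 7.13 in WT and 7.72, 7.07 and 7.19 in KO, with overlapping groups (log2FC 0.22, SE 0.25, adjusted p 0.715). The dimmer probe, assigned to 1 transcript, gave background signals in WT (2.74, 3.14 and 2.86) and 4.47, 5.13 and 5.22 in KO, with KO 2 above background. With WT raised to each array's lowest signal above background, this probe was 2.13-fold higher in KO (adjusted p 0.00868). The same fold against I53A (2.49, 2.95 and 3.76) was 2.30 (adjusted p 0.0278, both in limma). KO 1 and KO 3, at background, entered as measured, so these folds are no strict lower bounds. With the probes of a gene averaged, Hoxa9 was called in KO (log2FC 1.12, adjusted p 0.0117). The probes are 60 bases long and share no run of more than 7 bases. Their first 30 bases are given to show this, and their place in the gene was not established.
Hoxa9, brighter probe: taaaaagagagcaagctagaaagaaaaaga
Hoxa9, dimmer probe: tttgtccctgactgactatgcttgtggttc

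Hoxd11 split the other way. Its brighter probe lay higher on every KO array, and its dimmer probe, at background on all 9 arrays, gave 3.26, 2.86 and 3.18 in WT and 2.80, 2.74 and 3.91 in KO (adjusted p 0.968). Both probes of Hoxa13 were above background on all 9 arrays, with log2FC -0.45 and -0.36 in KO, and both of Hoxa3 were at background in WT and KO. The other 34 genes had 1 probe each, so these arrays gave no second reading for Hoxb13, Hoxc4, Hoxc9 or Hoxd10. The paper lists RT-PCR primers for Hoxb13 and Hoxd10 and reports that RT-PCR bore out its expression changes. Those RT-PCR values were not used here.

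**Figure D4:**
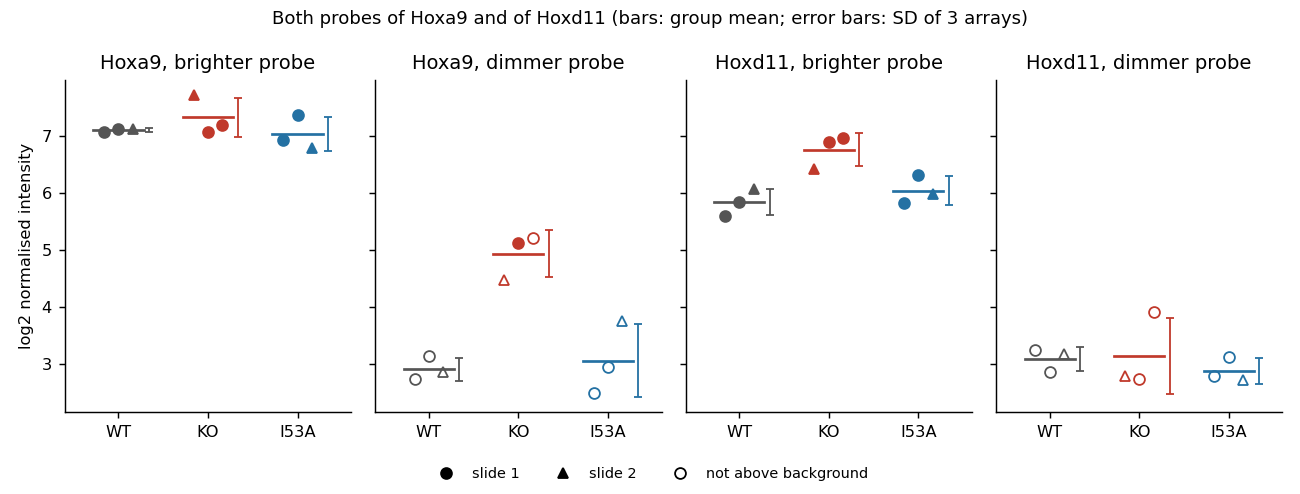
Log2 normalised intensity (y axis) of both probes of Hoxa9 and of Hoxd11 on each array (circles, slide 1; triangles, slide 2; open symbols, not well above background), with group means and SD. The dimmer Hoxa9 probe lies between 4.47 and 5.22 on the KO arrays and between 2.74 and 3.14 on the WT arrays, while the KO and WT arrays of the brighter one overlap.

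The clusters also hold transcripts other than Hox genes, read by 18 probes. Haglr, a noncoding RNA of Hoxd that lies between Hoxd3 and Hoxd1 on chromosome 2, was the only one called. It gave 4.47, 4.85 and 5.16 in WT, 6.21, 6.68 and 6.08 in KO and 6.07, 5.81 and 6.201 in I53A. It rose 2.82-fold in KO (log2FC 1.49, SE 0.26, adjusted p 0.0111 in limma, with 2 WT arrays above background). Its I53A arrays also lay above all WT arrays (log2FC 1.198, SE 0.26, adjusted p 0.117), and KO and I53A overlapped. Hoxa11os, the antisense partner of Hoxa11, gave 5.15, 5.26 and 5.66 in WT and 6.31, 5.94 and 6.03 in KO without overlap (adjusted p 0.177). The 5 probes of Hotair, in Hoxc, were at background on all 9 arrays.

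Genes that flank the clusters were read from a list of 17 names, of which 15 had a probe, and 1 was called in KO. Over all genes 2.92% were called higher in KO and 1.17% lower. Calcoco2, an autophagy receptor gene beside Hoxb on chromosome 11, gave 9.95, 10.07 and 10.29 in WT, 14.58, 13.92 and 14.79 in KO and 11.10, 11.47 and 11.48 in I53A. It was 20.1-fold higher in KO (log2FC 4.33, SE 0.27, adjusted p 2.81e-05 in limma). Its I53A arrays also lay above all WT arrays (log2FC 1.25, SE 0.27, adjusted p 0.113). Snx11, which flanks Hoxb on the other side, did not pass (log2FC 0.66, SE 0.28, adjusted p 0.265). Evx1 and Evx2, homeobox genes that continue the 5′ ends of Hoxa and Hoxd, were at background on all 9 arrays.

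HOX proteins bind DNA together with TALE homeodomain cofactors, and of 9 such genes 2 rose and 1 fell in KO. Over all genes 2.92% were called higher and 1.17% lower in KO, and 0.290% and 0.111% in I53A. Meis1 was at background on the WT arrays (4.05, 4.85 and 4.83) and gave 6.80, 7.63 and 7.89 in KO and 6.46, 7.04 and 7.61 in I53A. With WT as measured, it was 7.27-fold higher in KO (adjusted p 0.00258) and 5.49-fold in I53A (0.0335, both in limma). In I53A the call of Meis1 ended with slide as a block (0.0607) and with slide and row as a block (0.0709). Meis2 gave 2.49, 2.73 and 3.58 in WT and 5.92, 6.17 and 5.65 in KO. It gave 2.84, 3.28 and 4.10 in I53A, at background. With WT raised to each array's lowest signal above background, it was 4.17-fold higher in KO (adjusted p 0.00182 in limma). Pbx3 fell in KO (log2FC -1.09, SE 0.23, adjusted p 0.0265). The median log2FC of the 9 was 0.28 in KO and 0.17 in I53A.

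Of 15 measured regulators of Hox transcription, among them the CDX factors and the retinoic acid receptors and enzymes, limma called none in either mutant. The unadjusted p was under 0.05 for 2 of them in KO, both higher, and for 4 in I53A, 3 of them higher. Of all genes, 10.0% were higher and 8.29% lower at that limit in KO, and 5.83% and 3.94% in I53A. Their medians were 0.10 in KO and 0.26 in I53A. Cyp26a1, which breaks down retinoic acid, was at background in WT and above it on all KO arrays (4.82 ± 0.34 and 5.79 ± 0.24, adjusted p 0.129). The ParaHox genes, the evolutionary sister group of the Hox clusters, had 0 of 6 called by limma in both mutants. Cdx1, Cdx2 and Cdx4 are in both this list and that of the regulators, so the lists are not separate. None of the 6 passed that limit in KO, while in I53A 1 lay higher and 1 lower, and the medians were 0.080 in KO and 0.063 in I53A.

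Markers of other cell types were read on the same arrays. Beside them, 2.92% of all genes were called higher and 1.17% lower in KO, and 0.290% and 0.111% in I53A. On every KO array 12.2% of all genes lay higher and 13.5% lower than on any WT array. Of 8 primitive endoderm markers 4 rose in KO, Gata6, Gata4, Sox17 and Col4a1, and the summed intensity of the 8 was 882 to 1618 on the KO arrays, 296 to 487 on the WT arrays and 328 to 375 on the I53A arrays. Afp, Foxa2 and Sox7 were at background on every array. Of 6 neural markers Nes alone rose, in KO and in I53A. With WT raised to each array's lowest signal above background, the folds were 4.44 and 4.61 (adjusted p 0.00151 and 0.00884 in limma). The sums of the 6 were 322 to 400 in KO, 284 to 319 in WT and 312 to 368 in I53A. Of 6 streak and mesoderm markers Eomes rose in KO (log2FC 1.14, adjusted p 0.0458), and Mesp1 and Mixl1 were at background throughout (sums 221 to 288 in KO, 195 to 222 in WT, 225 to 301 in I53A). Of 6 fibroblast markers Thy1 alone was called, higher in KO (log2FC 1.31, adjusted p 0.0156), while Col1a1, Col1a2 and Col3a1 lay lower on every KO array than on any WT array, and the median of the 6 was -0.38. Lum was at background throughout (sums 520 to 570 in KO, 464 to 554 in WT and 521 to 697 in I53A). Of the 9 stem cell markers Sox2 alone was called, lower in KO (log2FC -1.03, adjusted p 0.0425). Nanog, Klf4, Tdgf1 and Fgf4 lay higher on every KO array than on any WT array, and the median of the 9 was 0.11. Their sums were 54214 to 57517 in KO, 34665 to 50875 in WT and 31795 to 49944 in I53A. In I53A none of the 9 was called. On every I53A array 1 of the 9 lay higher and 2 lower than on any WT array, against 8.72% and 9.70% of all genes. The part of other cell types in the Hox values was not tested.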

How the data were processed

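RNA of 9 samples was hybridised by the authors, as Cy3-labelled cRNA, to 1 Agilent mouse expression array each, and the scans were read with Feature Extraction (11.5.1.1 per the file headers). The deposited scan files give each spot's linear intensity after that software's background subtraction, with quality flags. The deposited series table holds log2 values that the authors averaged over repeated probes and quantile normalised, for 30170 probes assigned to mm10 genes; they were used as an alternative. That table also holds the authors' fold changes, p-values and group means, which were not used.

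From the intensities, control and outlier-flagged spots were left out, values were log2 transformed and averaged per probe, and arrays were quantile normalised over 55681 probes (R 4.3.3, limma 3.58.1). The 30170 table probes were tested in limma with the groups as the only term (two-sided, 6 residual degrees of freedom, Benjamini-Hochberg). Of these, 26929 got a symbol from RefSeq and 3241 kept an Ensembl identifier. A further Hoxb3 probe outside that table was at background on all 9 arrays. The limit of an array was its lowest signal among probes well above background (2.84 to 4.31 on the log2 scale). For a gene at background on all arrays of a group, signals below these limits were raised to them. Background signals above the limits stayed as measured, and so did the other group. The limit is the lowest over all probes of an array, not that of the gene's own probe. These folds are therefore no strict lower bounds. The model was tested on simulated data. Genes named are those called in any comparison; in each cluster the 3 with the lowest p in KO, the 2 with the lowest p in I53A and the 2 brightest in WT; and Hoxb13 and Hoxd10, assayed in the study. Others named were chosen after their values were seen. The members and gene lists were chosen with earlier results of these data known. Titles number the samples 1 to 3; another label gives all KO samples the number 1. Each group filled its own slide column, and these cannot be told apart. The normexp alternative used median spot signals. Alternatives also covered 75th percentile scaling, chromosome centring, the slide, slide and row (a block chosen after seeing the data), the replicate number, dim probes, probe averaging and each array left out. The PRC1 and PRC2 subunit list is not reported here.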

Additional observations from a re-analysis of the deposited data

How the results depend on the processing

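The number of arrays (3 a group) and the dim signal of most Hox probes limit these results: 15 of the 38 genes were above background on none of the 9 arrays. With the deposited log2 values 4 Hox genes were called in KO and 0 in I53A, each against WT, and 2 between the mutants, the same numbers as in the report, and no alternative called a Hox gene in I53A against WT. The count in KO against WT (4) was 0 with normexp and 1 on slide 1 alone. With each array left out it was 2 to 5, where Hoxd13 (without WT 3), Hoxc6 (without KO 1) and Hoxb4 (without I53A 2) entered. The count in KO against I53A (2) was 0 with 75th percentile scaling, with normexp and on slide 1 alone, 1 with chromosomes centred and with slide as a block, and 0 to 2 with each array left out. The cause of these changes was not tested.

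The median log2FC of all 38 genes in KO against WT (0.59) was 0.39 with 75th percentile scaling, 0.12 with normexp, 0.80 with dim probes left out and 0.82 on slide 1 alone, and 0.42 to 0.70 with each array left out. In KO against I53A (0.35) it was 0.10 with normexp. The Hoxa median in KO (0.20) was 0.059 with 75th percentile scaling. The Hoxb median in KO (0.89) was 0.53 with chromosomes centred, 0.14 with normexp and 0.60 to 0.95 with each array left out. With dim probes left out only Hoxb2 and Hoxb3 remained of Hoxb. Their median was 1.32 in KO and 0.12 in I53A, against -0.19 for all Hoxb genes in I53A. The Hoxc median in KO (0.33) was -0.20 with dim probes left out, 0.044 with normexp, 0.068 on slide 1 alone and 0.036 to 0.54 with each array left out. In I53A (0.29) it was 0.078 with dim probes left out, 0.11 with normexp and 0.12 to 0.37 with each array left out. The Hoxd median in KO (0.82) was 1.11 with dim probes left out, 0.18 with normexp and 0.49 to 1.03 with each array left out. The Hoxa median in I53A (0.11) ran from -0.0088 to 0.17 with each array left out. With dim probes left out, 16 of the 38 genes were tested, without Hoxb13 and Hoxc4, and Hoxd4 and Hoxd13 entered the KO calls. A gene above background on 3 KO arrays passes this filter by those alone, as Hoxb2 and Hoxd13 do. Calls and medians under it are thus not independent of a rise in KO.

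With the replicate number as a replicate block, 4, 0 and 0 Hox genes were called in the 3 comparisons, with Hoxd4 (adjusted p 0.0489) in place of Hoxd10 (0.0528). Deviations of same-numbered arrays from their group means correlated between -0.39 and 0.38, so the numbers did not pair all 3 groups. Those of WT and I53A arrays, which also share slide and row, correlated at 0.11 to 0.38. Arrays of the same slide and row correlated at 0.17 to 0.29 for WT and KO and at -0.0097 to 0.43 for KO and I53A. A fit with slide and row as a block, chosen after seeing the data, called 3 Hox genes in KO (without Hoxc4), 0 in I53A and 0 between the mutants.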
